A study of Rattus norvegicus with 8 samples.

Results

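The genes described here encode the Wnt ligands, their Frizzled and Lrp receptors, and the secreted proteins that restrain or strengthen Wnt signaling, measured in the Achilles tendon of rats at rest and after running. They were chosen by symbol among the protein-coding genes of the expression table. The choice took every *Wnt*, *Fzd*, *Sfrp*, and *Dkk* gene, together with *Frzb*, *Wif1*, *Lrp5*, *Lrp6*, *Axin2*, *Notum*, *Rspo1*, *Rspo2*, and *Rspo3*. This gave 45 genes of 32883 in the table, of which 19 are ligands, 9 are Frizzled receptors, 2 are Lrp co-receptors, 5 are secreted Frizzled-related proteins, 6 are other secreted inhibitors, 3 are R-spondins, and 1, *Axin2*, is a target and feedback gene. *Fzd10* is listed as a pseudogene and was therefore not among them.

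The right Achilles tendons of wild-type male Sprague-Dawley rats were sequenced as polyadenylated mRNA, with 1 library from each of 8 rats. The 4 rats of the running group ran uphill on a treadmill for 1 hour, moved by airflow and a mild electric stimulus, and were killed after 12 hours of rest (12 hours p.r., for post-running). The 4 naïve control rats (NC) stayed in their cages and were killed together with the runners, so airflow, stimulus, and the treadmill itself differed between the groups along with the run. Tendons taken at other times after running were not analysed here. Each library holds the RNA of the whole tissue piece and of every cell in it, and fewer cells of a type and less RNA per cell cannot be told apart. The comparison asks which Wnt pathway transcripts differed in the tendon 12 hours after a single run.

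Wnt proteins are lipid-bearing secreted ligands that bind Frizzled receptors. With Lrp5 or Lrp6 as co-receptor they stop the destruction of β-catenin, which then acts with TCF and LEF proteins on target genes such as *Axin2*. Other ligand and receptor pairs act without β-catenin on cell polarity and movement. Secreted Frizzled-related proteins and Wif1 bind Wnt proteins outside the cell, Dickkopf proteins (Dkk) block the co-receptors, Notum removes the lipid, and R-spondins keep receptors at the cell surface. The pathway governs cartilage and bone formation, and active β-catenin signaling is known to lower tendon genes such as *Scx* and *Tnmd* in cultured tendon cells.

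Total counts on genes ran from 7350509 to 10648648 in the 12 hours p.r. rats and from 8385779 to 12951397 in the NC rats. Tendon markers were high in all libraries, with *Col1a1* at between 11092 and 37602 CPM (read counts scaled to a common library size). A list of 12 cartilage and bone markers summed to between 95.7 and 809 CPM in the 12 hours p.r. rats and between 205 and 1771 CPM in the NC rats, and 10 of the 12 had a lower mean at 12 hours p.r. The highest sums belonged to NC replicate 3 and 12 hours p.r. replicate 1, and *Matn3* and *Sp7* were at 0 in at least 1 rat. A list of 10 skeletal muscle markers summed to 3268, 2313, 62220, and 3302 CPM in 12 hours p.r. replicates 1 to 4. The sums lay between 2087 and 11557 CPM in the NC rats, so only replicate 3 of the runners lay above them. For 9 of the 10 the mean was higher at 12 hours p.r., a mean that includes replicate 3. The sum of 10 tenocyte markers was lowest in the same replicate 3, at 16761 CPM, and lay between 27886 and 49018 CPM elsewhere. These 3 libraries stand apart in their markers, and members that crossed an unadjusted p value of 0.05 without them are also given without all 3, a fit that leaves 2 rats against 3. Of the 10 tenocyte markers, 5 had a higher and 5 a lower mean at 12 hours p.r. Among them, the regulator *Scx* was at 58.0, 48.7, 45.2, and 60.6 CPM in the 12 hours p.r. rats. It was at 36.9, 37.8, 43.9, and 20.3 CPM in the NC rats, with no overlap. Its log2 fold change was 0.62 (edgeR unadjusted p = 0.0191, adjusted p = 0.452). The regulator *Mkx* had a log2 fold change of 0.78 (edgeR unadjusted p = 0.0190, adjusted p = 0.452) and *Egr1* one of −0.42 (edgeR unadjusted p = 0.248). *Tnmd* was at 250 to 358 CPM in the runners and 224 to 392 CPM in NC, with a log2 fold change of −0.07. The relation of these tendon genes to the Wnt genes was not tested.

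Among the 28 genes of the group with enough reads to test, none passed an adjusted p value of 0.05 by the quasi-likelihood test of edgeR, with p values adjusted by the Benjamini-Hochberg method for the 13937 genes of the fit. The lowest adjusted p value of a member was 0.433, and over all genes tested 1 gene, or 0.00718%, was called. Limma called none of the members either, nor did DESeq2, in which the lowest adjusted p value was 0.129, for *Sfrp2*, and in which 96 of all genes (0.694%) were called. At an unadjusted p value under 0.05, there were 9 of the 28 in edgeR (32.1%), where 9.51% of all genes tested did so. Of these, 4 were higher at 12 hours p.r. (*Fzd2*, *Fzd7*, *Lrp5*, and *Axin2*), against 5.44% of all genes. The other 5 were lower (*Sfrp2*, *Sfrp5*, *Wnt5b*, *Wnt6*, and *Rspo3*), against 4.08% of all genes. In the 8 fits that omitted 1 rat, *Sfrp2* and *Rspo3* stayed under 0.05 each time, while the other 7 lost this in 4 to 6 fits. Between 3 of the 9 (without 12 hours p.r. replicate 4) and 7 of the 9 (without 12 hours p.r. replicate 2) remained in a fit. In these fits 7.65% and 10.2% of all genes, in that order, were under 0.05. The median log2 fold change of the 28 was −0.20, with 11 above and 17 below 0, while the median of all genes tested was 0.02. The 28 are those that passed the filter on low counts, so these counts describe them and do not extend to the other 17.

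**Figure D1:**
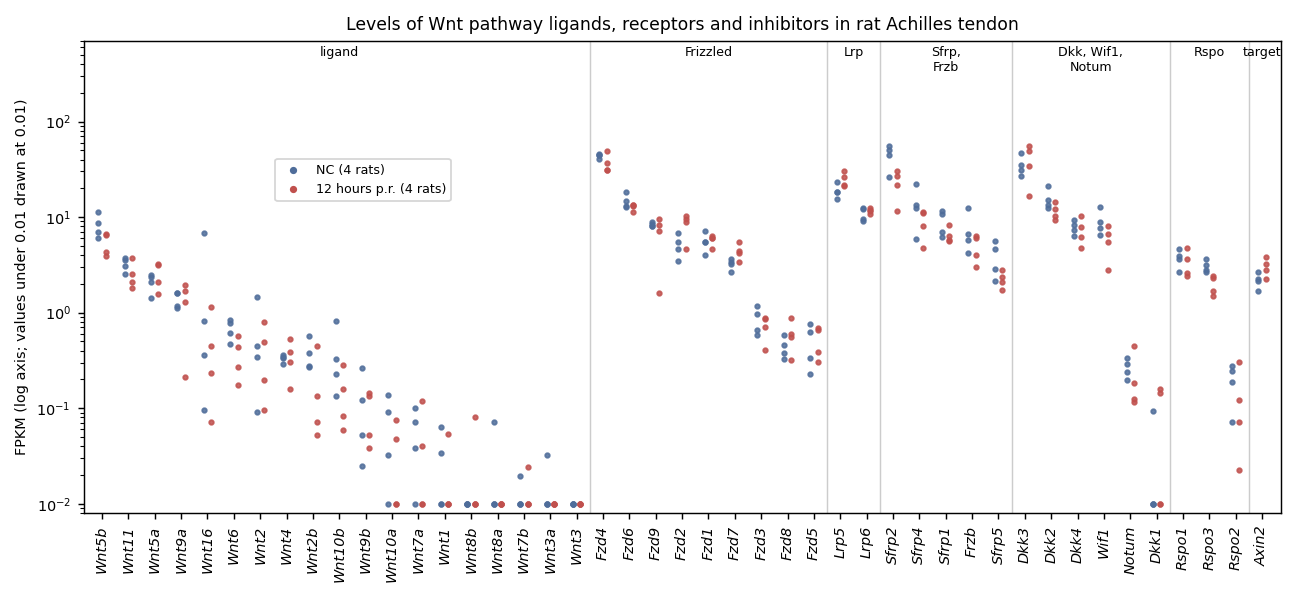
Level of each of the 45 genes in each rat as FPKM on a log axis, with NC rats in blue and 12 hours p.r. rats in red. Genes are ordered by mean level within each role, values under 0.01 are drawn at 0.01, and the 2 groups lie over each other for most genes.

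The promoters of 4 members, chosen after their values were seen, are shown as a description. No link between promoter letters and the values was tested. *Axin2* is the standard readout of β-catenin with TCF and LEF factors, and *Fzd7* was, like it, among the 4 higher members. *Sfrp2* and *Rspo3* were the lower members whose unadjusted p value stayed under 0.05 with any single rat left out. The sequences are the 250 bases before the gene start in the GRCr8 assembly from RefSeq, a different build from the Rnor_6.0 used for the counts, and are written 5′ to 3′ on the gene's strand. Capitals mark the letters CTTTGA, the core that TCF and LEF factors bind, or TCAAAG, the same letters on the other strand.
*Axin2*, chr10:94398535-94398784, plus strand: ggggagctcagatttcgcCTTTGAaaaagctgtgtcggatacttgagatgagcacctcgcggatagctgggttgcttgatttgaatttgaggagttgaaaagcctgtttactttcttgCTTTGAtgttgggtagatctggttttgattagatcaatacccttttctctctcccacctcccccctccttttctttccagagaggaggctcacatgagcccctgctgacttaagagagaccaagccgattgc
*Fzd7*, chr9:68425288-68425537, plus strand: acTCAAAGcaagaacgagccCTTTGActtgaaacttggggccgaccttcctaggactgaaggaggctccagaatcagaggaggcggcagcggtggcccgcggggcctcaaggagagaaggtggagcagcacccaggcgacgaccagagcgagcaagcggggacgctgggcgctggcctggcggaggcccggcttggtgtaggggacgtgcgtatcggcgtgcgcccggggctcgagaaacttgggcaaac
*Sfrp2*, chr2:171387286-171387535, plus strand: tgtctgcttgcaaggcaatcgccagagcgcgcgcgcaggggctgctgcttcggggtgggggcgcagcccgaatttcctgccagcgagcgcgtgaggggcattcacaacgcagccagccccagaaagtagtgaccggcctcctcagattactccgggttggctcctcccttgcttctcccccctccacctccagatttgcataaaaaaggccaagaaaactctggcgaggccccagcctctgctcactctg
*Rspo3*, chr1:30112279-30112528, plus strand: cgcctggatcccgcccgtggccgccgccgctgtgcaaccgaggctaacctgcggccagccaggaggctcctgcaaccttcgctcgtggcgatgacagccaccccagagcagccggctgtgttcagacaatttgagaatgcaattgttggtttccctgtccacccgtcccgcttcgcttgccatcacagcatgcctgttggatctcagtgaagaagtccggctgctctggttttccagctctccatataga
The matches in *Axin2* began 232 and 132 bases before the gene start, and those in *Fzd7* began 248 bases (other strand) and 230 bases before it. The windows of *Sfrp2* and *Rspo3* do not hold these letters, nor do those of *Wnt6* and *Sfrp5*. No promoter was matched for *Fzd2*, *Lrp5*, or *Wnt5b*. Of the 45 members, 30 matched a promoter in the table, and 4 of the 30 (13.33%) held the letters at least once, namely *Axin2*, *Fzd7*, *Dkk1*, and *Wnt8a*. Of all 33469 promoters, 13.91% held them at least once and 1.4% held them 2 or more times. A match is a run of letters and does not show that a factor binds there.

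Few Wnt ligands had enough reads to be tested, and the filter acts on reads, not on the level corrected for gene length. Only 5 of the 19 ligands passed the filter (*Wnt4*, *Wnt5a*, *Wnt5b*, *Wnt6*, and *Wnt11*), and 3 of these, *Wnt5b*, *Wnt11*, and *Wnt5a*, are best known for signaling without β-catenin. On the FPKM scale, which corrects for gene length, *Wnt5b* was the first of all ligands with a mean of 6.81 over the 8 rats. *Wnt11* followed with 2.87 and *Wnt5a* with 2.30. *Wnt9a*, which did not pass the filter, came next with 1.33, above *Wnt6* (0.521) and *Wnt4* (0.339), which passed it. *Wnt5b* made up between 30.1 and 56.6% of the summed FPKM of all ligands in a rat, with a median of 39.2%. The FPKM of *Wnt11*, from 1.79 to 3.72, and that of *Wnt5a*, from 1.43 to 3.20, overlapped across rats, whereas *Wnt5b* ran from 3.91 to 11.3.

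*Wnt5b* (ENSRNOG00000008168), a ligand of growth plate cartilage, was at 16.8, 17.4, 10.1, and 11.3 CPM in 12 hours p.r. replicates 1 to 4. In NC replicates 1 to 4 it was at 17.9, 29.3, 22.5, and 15.6 CPM. Its highest value belonged to NC replicate 2 and its lowest to 12 hours p.r. replicate 3, and the groups overlapped. The mean was 13.9 ± 3.74 CPM at 12 hours p.r. and 21.3 ± 6.04 CPM in NC (SD, n = 4 each), a ratio of 0.652. Its difference was a log2 fold change of −0.62 with a standard error of 0.25 (edgeR unadjusted p = 0.0327, adjusted p = 0.488), and a permutation test over the 8 rats gave an exact p of 0.114. Without NC replicate 2 the log2 fold change was −0.43 and the unadjusted p value no longer under 0.05. The call was also lost without the pair of rats highest in cartilage and bone markers (−0.70, edgeR unadjusted p = 0.0574) and without the 3 libraries that stand apart (−0.55, edgeR unadjusted p = 0.132).

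*Wnt6* (ENSRNOG00000017409), a ligand that acts mainly through β-catenin, had few reads, 91 over the 8 rats. It was at 0.906, 1.19, 0.357, and 0.563 CPM in the 12 hours p.r. rats and at 1.6, 0.981, 1.74, and 1.27 CPM in the NC rats. Only 12 hours p.r. replicate 2 lay above an NC rat, namely NC replicate 2. The mean was 0.753 ± 0.367 CPM at 12 hours p.r. and 1.4 ± 0.340 CPM in NC (SD, n = 4 each). Its log2 fold change of −0.93 had a standard error of 0.39 (edgeR unadjusted p = 0.0413, adjusted p = 0.507), and without the 3 libraries that stand apart it was −0.61 (edgeR unadjusted p = 0.286).

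*Wnt5a* (ENSRNOG00000015618), which signals through Ror receptors, was at 16.0, 7.90, 16.1, and 10.4 CPM in the 12 hours p.r. rats. In the NC rats it was at 11.8, 10.4, 12.5, and 7.14 CPM. Its values overlapped, and the log2 fold change of 0.27 had a 95% interval from −0.33 to 0.87 and turned to −0.087 without the 3 libraries that stand apart. *Wnt11* (ENSRNOG00000015982), known for its part in cell polarity, was at 6.6, 5.4, 4.64, and 9.58 CPM in the 12 hours p.r. rats and at 9.62, 6.62, 8.01, and 9.18 CPM in NC. Its log2 fold change of −0.35 had an interval from −0.90 to 0.21 (−0.17 without the 3 libraries), and 12 hours p.r. replicate 4 lay among the highest NC rats. The ratio of *Wnt5a* to *Wnt5b* in FPKM was 0.492, 0.234, 0.819, and 0.477 in the 12 hours p.r. rats. In the NC rats this ratio was 0.340, 0.183, 0.287, and 0.235, so the 12 hours p.r. rats lay above every NC rat except in replicate 2.

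The other 14 ligands did not pass the filter on low counts. *Wnt3* had 0 reads in all 8 rats, and *Wnt3a*, *Wnt8a*, and *Wnt8b* had 1 read each. *Wnt1*, *Wnt7b*, *Wnt10a*, and *Wnt7a* had 4, 2, 11, and 13 reads over the 8 rats. *Wnt2*, *Wnt2b*, *Wnt9a*, *Wnt9b*, and *Wnt10b* had between 41 and 66 reads. *Wnt16*, a ligand active in bone, was unlike these in that 150 of its 197 reads came from NC replicate 3, the library highest in cartilage and bone markers. It was at 11.3 CPM in that rat and between 0.119 and 1.94 CPM in the other 7 rats. A part of that tissue in the *Wnt16* value was not tested.

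All 9 Frizzled receptors passed the filter. *Fzd4* was the most abundant of them with a mean of 40.5 FPKM, and it made up between 41.1 and 61.3% of the summed Frizzled FPKM in a rat. *Fzd6* followed with 13.8 FPKM and a median share of 17.0%, and *Fzd9* with 7.45 FPKM. The values of *Fzd4* (31.3 to 49.2 FPKM) and *Fzd6* (11.4 to 18.1 FPKM) did not overlap across the 8 rats. Below them, *Fzd9*, *Fzd2*, *Fzd1*, and *Fzd7* had overlapping ranges, and *Fzd3*, *Fzd5*, and *Fzd8* reached at most 1.17 FPKM in any rat.

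*Fzd2* (ENSRNOG00000021962), a receptor for *Wnt5a* and other ligands, had the largest positive log2 fold change of the members tested. It was at 17.1, 18.3, 8.81, and 19.9 CPM in 12 hours p.r. replicates 1 to 4. In NC replicates 1 to 4 it was at 10.5, 8.95, 12.99, and 6.71 CPM. Replicates 1, 2, and 4 of the runners lay above every NC rat, and replicate 3, the library highest in muscle markers, lay among the NC rats. The mean of 16.0 ± 4.95 CPM at 12 hours p.r. was 1.63 times that of 9.79 ± 2.64 CPM in NC (SD, n = 4 each). The log2 fold change of 0.71 had a standard error of 0.28 (edgeR unadjusted p = 0.0318, adjusted p = 0.488), and the exact permutation p was 0.114. Without 12 hours p.r. replicate 3 the log2 fold change was 0.91, and without NC replicate 4 it was 0.56. The unadjusted p value was under 0.05 in 2 of the 8 fits that omitted 1 rat. With the replicate number as a block the unadjusted call was lost. Without all 3 libraries that stand apart the log2 fold change was 1.13 (edgeR adjusted p = 0.296).

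*Fzd7* (ENSRNOG00000016119), a receptor studied in stem cells of muscle and gut, was at 12.6, 11.9, 15.6, and 9.58 CPM in the 12 hours p.r. rats. It was at 9.54, 9.08, 10.3, and 7.48 CPM in the NC rats. Only NC replicate 3 lay above a running rat, replicate 4. The mean was 12.4 ± 2.48 CPM at 12 hours p.r. and 9.09 ± 1.18 CPM in NC (SD, n = 4 each), a ratio of 1.36. A log2 fold change of 0.44 had a standard error of 0.18 (edgeR unadjusted p = 0.0334, adjusted p = 0.489), with an exact permutation p of 0.0571. The unadjusted call was lost without the pair of rats highest in cartilage and bone markers (log2 fold change 0.50, edgeR unadjusted p = 0.0602) and without the 3 libraries that stand apart (0.30, edgeR unadjusted p = 0.201).

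The 3 most abundant Frizzled receptors were not among the members at an unadjusted p value under 0.05. *Fzd4* (ENSRNOG00000016848), which also binds Norrin in vessels, was at 257, 216, 338, and 217 CPM in the 12 hours p.r. rats and at 304, 304, 276, and 317 CPM in the NC rats. In 12 hours p.r. replicate 3 it was the highest of all 8 rats, and the other 3 runners lay below all NC rats. A log2 fold change of −0.23 had a 95% interval from −0.58 to 0.13, and without that replicate it was −0.39. Without the 3 libraries that stand apart it was −0.51 (edgeR unadjusted p = 0.00473, adjusted p = 0.383). *Fzd6* (ENSRNOG00000004660), a receptor of planar cell polarity, was at 48.4, 56.8, 55.7, and 56.6 CPM at 12 hours p.r. and at 55.5, 76.3, 53.5, and 61.9 CPM in NC, with a log2 fold change of −0.18 (interval, −0.46 to 0.10). *Fzd9* (ENSRNOG00000001452) was at 16.8, 22.0, 3.69, and 19.1 CPM at 12 hours p.r. and at 18.7, 20.5, 19.5, and 18.5 CPM in NC. A single rat, 12 hours p.r. replicate 3, was low in *Fzd9*, and its log2 fold change of −0.32 was 0.00065 without that rat and 0.094 without the 3 libraries. *Fzd1*, *Fzd3*, *Fzd5*, and *Fzd8* had log2 fold changes between −0.25 and 0.42 with unadjusted p values between 0.260 and 0.925 in edgeR. Without the 3 libraries *Fzd8* was at 0.91 (edgeR unadjusted p = 0.0639), *Fzd3* at −0.72, *Fzd5* at 0.34, and *Fzd1* at 0.32.

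**Figure D2:**
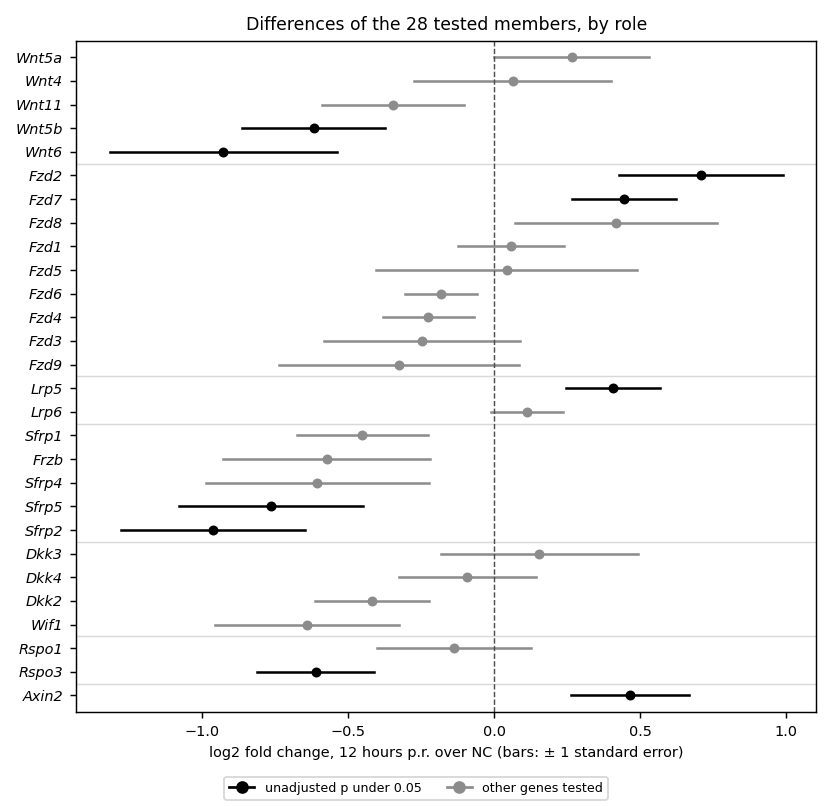
Log2 fold change of each of the 28 tested genes between 12 hours p.r. and NC rats, grouped by role from ligands at the top to *Axin2* at the bottom, with bars of 1 standard error from edgeR. The 9 genes in black had an unadjusted p value under 0.05, and the 5 secreted Frizzled-related proteins all lie left of 0.

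Both co-receptors of the β-catenin branch were well expressed. *Lrp5*, in which human mutations alter bone mass, was at a mean of 21.8 FPKM and *Lrp6* at 11.2 FPKM. Each rat had more *Lrp5* than *Lrp6*, with *Lrp5* making up from 56.3 to 71.7% of their sum. *Lrp5* (ENSRNOG00000015911) was at 154.8, 110.1, 109, and 135 CPM in 12 hours p.r. replicates 1 to 4 and at 92.7, 92.2, 119.5, and 79.2 CPM in NC replicates 1 to 4. NC replicate 3 was the only NC rat above some of the runners. The mean was 127 ± 22.0 CPM at 12 hours p.r. and 95.9 ± 17.0 CPM in NC (SD, n = 4 each), a ratio of 1.33. In edgeR the log2 fold change was 0.41 with a standard error of 0.16 (unadjusted p = 0.0314, adjusted p = 0.488), and the exact permutation p was 0.0857. With the cartilage and bone marker level as a covariate the log2 fold change was 0.48, and it stayed at 0.42 without the pair of rats highest in those markers. Without 12 hours p.r. replicate 1 it was 0.30. The unadjusted p value was under 0.05 in 3 of the 8 fits that omitted 1 rat. With the replicate number as a block the unadjusted call was lost. *Lrp6* (ENSRNOG00000006338) was at 67.7, 70.5, 65.0, and 60.8 CPM in the 12 hours p.r. rats and at 53.3, 51.4, 71.1, and 68.1 CPM in the NC rats. Its log2 fold change of 0.11 had an interval from −0.16 to 0.39.

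**Figure D3:**
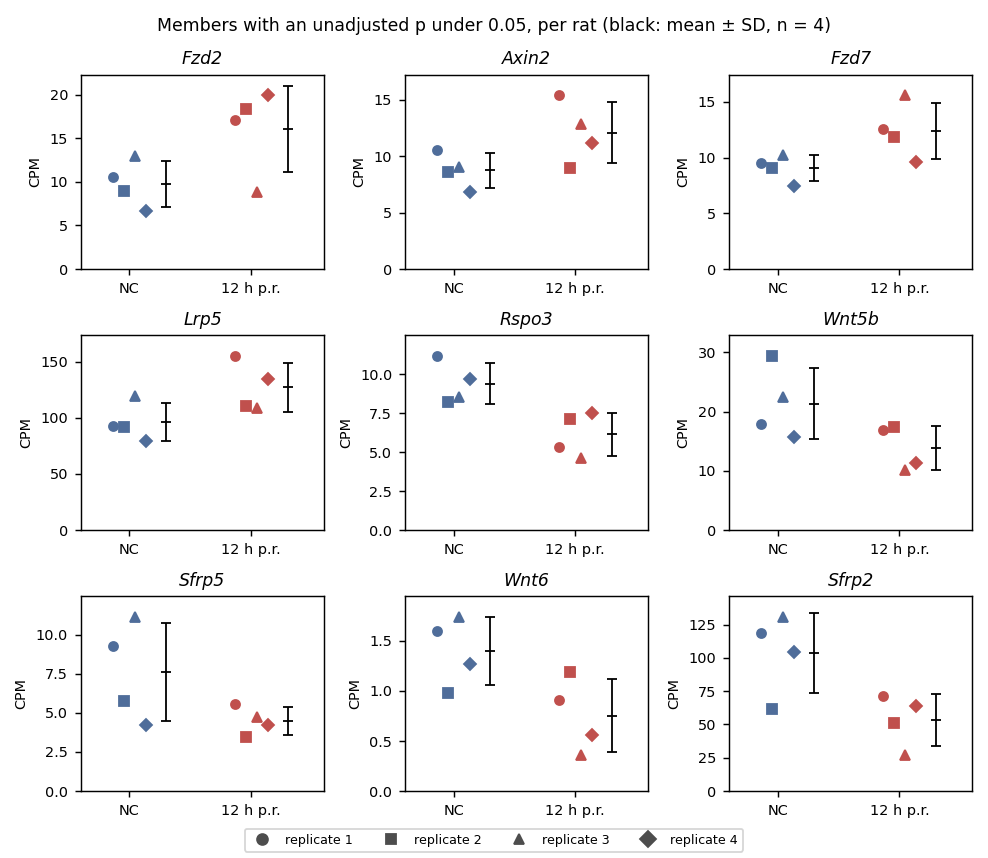
CPM of the 9 members with an unadjusted p value under 0.05 in each rat, from *Fzd2* to *Sfrp2* by falling log2 fold change, with mean ± SD (n = 4) in black and 1 marker shape per replicate number. Only *Rspo3* has no overlap between the NC rats (8.22 to 11.1 CPM) and the 12 hours p.r. rats (4.64 to 7.51 CPM).

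All 5 secreted Frizzled-related proteins had log2 fold changes below 0, from −0.96 for *Sfrp2* to −0.45 for *Sfrp1*, with a median of −0.60. Of all 13937 genes tested, 6380 were below 0. None of the 5 passed the adjusted test, and 2 of them (40%), *Sfrp2* and *Sfrp5*, had an unadjusted p value under 0.05. Of all genes tested, 4.08% were lower at that threshold. *Sfrp2* was the most abundant at a mean of 33.4 FPKM and made up between 33.0 and 61.9% of their summed FPKM in a rat. *Sfrp4* (11.1 FPKM), *Sfrp1* (7.67 FPKM), *Frzb* (6.06 FPKM), and *Sfrp5* (3.03 FPKM) followed, with overlapping ranges between neighbors in this order. The summed FPKM of the 5 ranged from 34.6 to 98.3 over the rats. In CPM, *Sfrp1*, *Sfrp2*, *Sfrp5*, and *Frzb* were highest in NC replicate 3, the library highest in cartilage and bone markers. *Sfrp4* was highest in NC replicate 1. The part of cartilage and bone tissue in these values was not tested.

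*Sfrp2* (ENSRNOG00000009465), secreted by fibroblasts into the matrix, was at 71.3, 51.4, 26.9, and 63.6 CPM in 12 hours p.r. replicates 1 to 4. In NC replicates 1 to 4 it was at 119, 61.6, 131, and 104 CPM. A single NC rat, replicate 2, lay within the range of the runners. The mean was 53.3 ± 19.4 CPM at 12 hours p.r. and 104 ± 30.1 CPM in NC (SD, n = 4 each), a ratio of 0.513. The log2 fold change of −0.96, the most negative of the members tested, had a standard error of 0.31 (edgeR unadjusted p = 0.0133, adjusted p = 0.433), and the exact permutation p was 0.0857. In the 8 fits that omitted 1 rat it ran from −1.14 to −0.74, the latter without 12 hours p.r. replicate 3, and all 8 unadjusted p values stayed under 0.05. With the pair of rats highest in cartilage and bone markers left out it was −1.0, with an unadjusted edgeR p of 0.0251, and without the 3 libraries that stand apart −0.72, with a p of 0.0351.

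*Sfrp5* (ENSRNOG00000014940), best known as a product of fat tissue, was at 5.57, 3.43, 4.76, and 4.22 CPM in the 12 hours p.r. rats and at 9.30, 5.76, 11.1, and 4.25 CPM in the NC rats. Replicate 4 of the NC rats lay within the running group and the other 3 lay above it. The mean was 4.49 ± 0.901 CPM at 12 hours p.r. and 7.6 ± 3.15 CPM in NC (SD, n = 4 each). The log2 fold change of −0.76 had a standard error of 0.32 (edgeR unadjusted p = 0.0388, adjusted p = 0.498). Without NC replicate 3 it was −0.52, and the unadjusted p value was no longer under 0.05, nor was it without the 3 libraries that stand apart (−0.75, edgeR unadjusted p = 0.0977). In the 13 alternatives other than single rats, the unadjusted call was kept in 7. Losses came with the cartilage and bone covariate, without the pair highest in those markers, and with limma on log2 FPKM or voom. NC replicate 3, the highest rat in *Sfrp5*, was also highest in cartilage and bone markers. Of 7 adipocyte markers, 5 had lower means at 12 hours p.r. Summed, the 7 were at 3251 to 8485 CPM in the runners and 4751 to 7915 CPM in NC, with 5831 CPM in NC replicate 3. The part of either tissue in *Sfrp5* was not tested.

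*Sfrp4* (ENSRNOG00000054957), needed for normal cortical bone, was at 22.3, 37.1, 51.5, and 51.4 CPM at 12 hours p.r. and at 100.8, 27.1, 61.2, and 57.8 CPM in NC. NC replicate 1 was the highest rat, and without it the log2 fold change of −0.60 was −0.26. *Sfrp1* (ENSRNOG00000017783) was at 32.6, 22.4, 21.9, and 24.6 CPM at 12 hours p.r. and at 41.7, 24.4, 45.5, and 26.9 CPM in NC. Its log2 fold change was −0.45 (95% interval, −0.96 to 0.05) and was −0.29 without NC replicate 3, its highest rat. *Frzb*, first found in cartilage, was highest in NC replicate 3 at 34.1 CPM, the library highest in cartilage and bone markers, and between 8.30 and 18.3 CPM in the other 7 rats. Its log2 fold change of −0.57 had an unadjusted edgeR p of 0.139, was −0.18 without that rat and −0.28 without the 3 libraries, and the part of cartilage tissue in it was not tested.

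**Figure D4:**
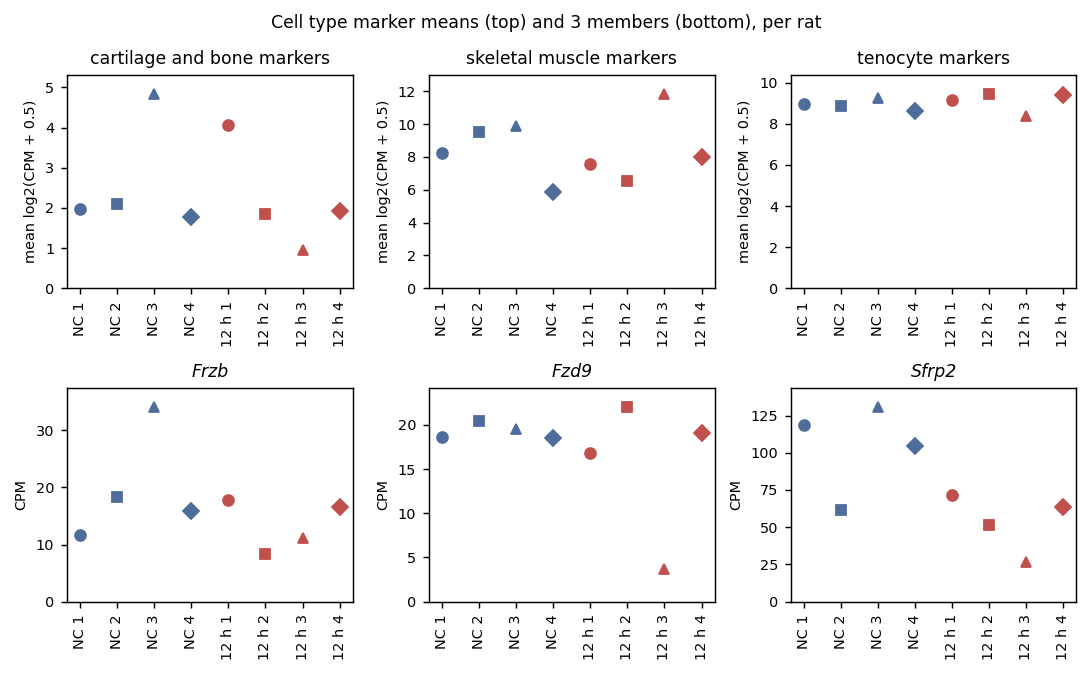
Mean log2(CPM + 0.5) of cartilage and bone, skeletal muscle, and tenocyte markers in each rat (top) and CPM of *Frzb*, *Fzd9*, and *Sfrp2* in the same rats (bottom), with NC rats in blue, 12 hours p.r. rats in red, and 1 marker shape per replicate number. NC replicate 3 is highest in cartilage and bone markers (4.84) and in *Frzb*, and 12 hours p.r. replicate 3 is highest in muscle markers (11.8) and lowest in tenocyte markers, *Fzd9*, and *Sfrp2*.

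Of the other secreted inhibitors, *Dkk3* was the most abundant at 36.7 FPKM, from 41.4 to 68.4% of the summed FPKM of *Dkk1* to *Dkk4*, *Wif1*, and *Notum*. *Dkk2* (13.5 FPKM), *Dkk4* (7.58 FPKM), and *Wif1* (7.37 FPKM) followed, and none of these 4 had an unadjusted p value under 0.05. *Dkk3* (ENSRNOG00000016343), a divergent Dickkopf that does not act through Lrp5 and Lrp6 as the others do, was at 172, 247, 84.0, and 276 CPM at 12 hours p.r. and at 156, 234, 177, and 134 CPM in NC. The runners spanned the whole range, and the log2 fold change of 0.16 had an interval from −0.61 to 0.91. Without the 3 libraries that stand apart it was 0.59 (edgeR unadjusted p = 0.0439, adjusted p = 0.540). *Dkk2* (ENSRNOG00000011360), which binds the Lrp co-receptors, was at 51.3, 32.8, 36.4, and 43.7 CPM at 12 hours p.r. and at 74.5, 43.7, 54.1, and 46.8 CPM in NC. Only 12 hours p.r. replicate 1 lay above the middle of the NC rats, and the log2 fold change was −0.42 (95% interval, −0.86 to 0.02; edgeR unadjusted p = 0.0606). Without the pair of rats highest in cartilage and bone markers it was −0.55 (edgeR unadjusted p = 0.0432, adjusted p = 0.646).

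*Dkk4* (ENSRNOG00000019267), an inhibitor of the co-receptors and a β-catenin target in other tissues, was at 7.25, 11.9, 15.5, and 9.39 CPM at 12 hours p.r. and at 12.3, 14.1, 11.0, and 9.52 CPM in NC. Its groups overlapped fully, with a log2 fold change of −0.09 (95% interval, −0.62 to 0.44). *Wif1* ranged from 6.31 CPM in 12 hours p.r. replicate 3 to 28.8 CPM in NC replicate 3, the libraries highest in muscle and in cartilage markers. Its log2 fold change was −0.64 (edgeR unadjusted p = 0.0724, adjusted p = 0.561) and −0.33 without the 3 libraries. *Dkk1*, the classic inhibitor of Lrp5 and Lrp6, had 3 reads over the 8 rats and *Notum* had 40, so a difference in either was not detectable at this depth.

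The R-spondins held the 1 member of the 28 tested whose groups did not overlap, where 6.06% of all genes tested had no overlap. *Rspo3* (ENSRNOG00000011568), which raises Wnt signaling through Lgr receptors and acts in vessels and bone, was at 5.31, 7.11, 4.64, and 7.51 CPM in 12 hours p.r. replicates 1 to 4. In NC replicates 1 to 4 it was at 11.1, 8.22, 8.53, and 9.69 CPM. Every runner lay below every NC rat. The mean was 6.14 ± 1.39 CPM at 12 hours p.r. and 9.39 ± 1.32 CPM in NC (SD, n = 4 each), a ratio of 0.655. As a log2 fold change this was −0.61 with a standard error of 0.20 (edgeR unadjusted p = 0.0132, adjusted p = 0.433). The exact permutation p was 0.0286, the smallest that 4 rats against 4 can give, which any gene without overlap reaches. In the 8 fits that omitted 1 rat it ran from −0.73 to −0.50, with all 8 unadjusted p values under 0.05, but without the 3 libraries that stand apart it was −0.41 and the unadjusted call was lost (edgeR unadjusted p = 0.102).

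*Rspo1* (ENSRNOG00000009656), which acts through the same receptors, was slightly more abundant than *Rspo3*, at 3.54 against 2.52 FPKM, and their ranges overlapped. It was at 4.53, 6.19, 4.17, and 8.17 CPM at 12 hours p.r. and at 7.86, 6.75, 4.61, and 6.29 CPM in NC, and the log2 fold change of −0.14 had an interval from −0.73 to 0.46 (0.049 without the 3 libraries). *Rspo2* was not tested and was at a mean of 0.162 FPKM. Its CPM was 0.647, 1.58, 0.119, and 0.376 at 12 hours p.r. and 1.44, 0.981, 0.378, and 1.27 in NC.

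*Axin2* (ENSRNOG00000055010), a scaffold of the β-catenin destruction complex and itself a target of the pathway, was at 15.4, 8.96, 12.9, and 11.2 CPM in the 12 hours p.r. rats. It was at 10.6, 8.58, 9.06, and 6.80 CPM in the NC rats. Replicates 1, 3, and 4 of the runners lay above all NC rats and replicate 2 lay among them. The mean was 12.1 ± 2.72 CPM at 12 hours p.r. and 8.76 ± 1.56 CPM in NC (SD, n = 4 each), a ratio of 1.38. A log2 fold change of 0.46 had a standard error of 0.20 (edgeR unadjusted p = 0.0465, adjusted p = 0.519), and it lost the unadjusted call in 6 of the 8 fits that left out 1 rat. It was 0.33 without 12 hours p.r. replicate 1 and 0.34 without the pair of rats highest in cartilage and bone markers (edgeR unadjusted p = 0.177). Without the 3 libraries that stand apart it was 0.22 (edgeR unadjusted p = 0.405).

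The rest of the pathway was described with 3 lists of 63 genes outside the choice, of which 61 were found by symbol and 55 were tested. None had an adjusted p value under 0.05 in edgeR, and 8 (14.5%) had an unadjusted p value under 0.05, against 9.51% of all genes, of which 7 were higher at 12 hours p.r. and 1 was lower. The groups of 5 of the 55 did not overlap (6.06% of all genes), 31 log2 fold changes were above and 24 below 0, and their median was 0.03. Among 17 genes of Wnt secretion and co-receptors, 12 were tested and only *Ror1*, a receptor for *Wnt5a*, had an unadjusted p value under 0.05. *Ror1* was at 6.99, 4.87, 4.88, and 6.29 CPM at 12 hours p.r. and at 10.02, 7.11, 8.01, and 7.22 CPM in NC, with no overlap and a log2 fold change of −0.49 (edgeR unadjusted p = 0.0311, adjusted p = 0.486). *Wls* and *Porcn*, needed by every cell that secretes a Wnt protein, had log2 fold changes of −0.05 and 0.09.

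**Figure D5:**
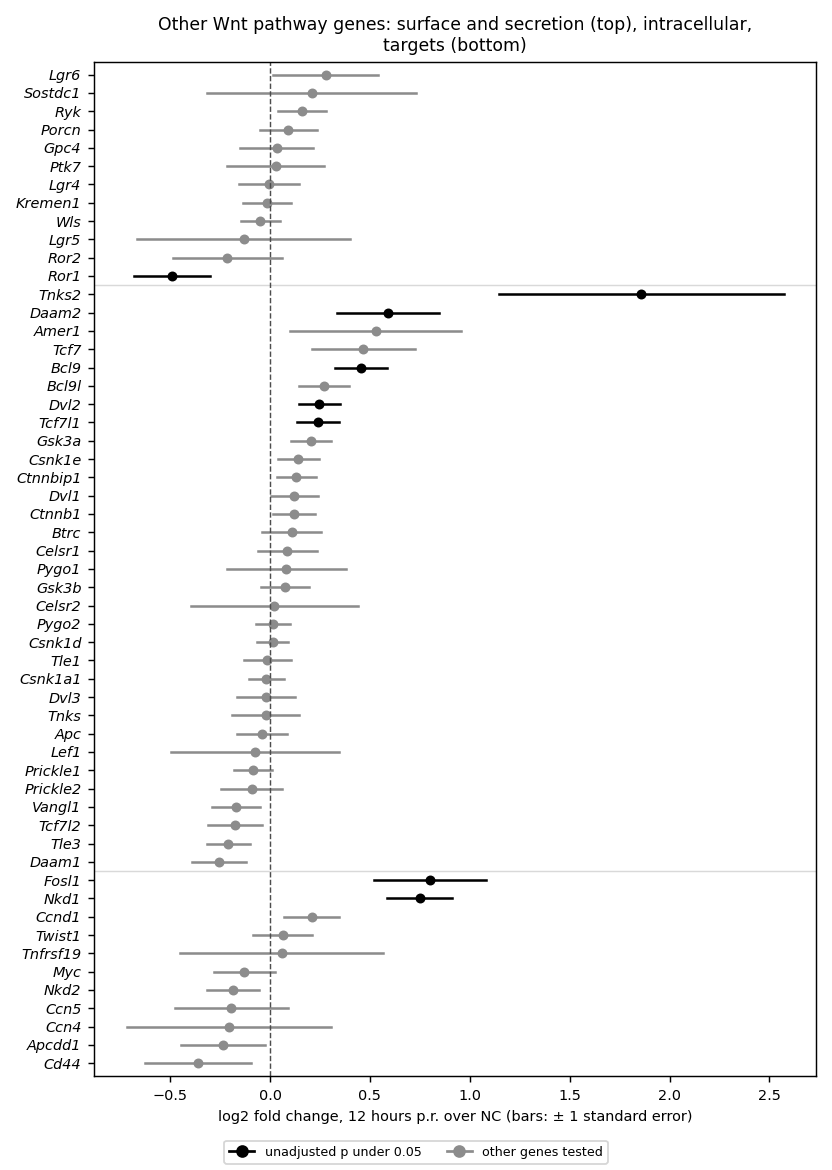
Log2 fold change of the 55 tested pathway genes outside the choice, between 12 hours p.r. and NC rats, with bars of 1 standard error from edgeR and genes in black at an unadjusted p value under 0.05. The black genes are *Ror1* on the left of 0 and *Tnks2*, *Daam2*, *Bcl9*, *Dvl2*, *Tcf7l1*, *Fosl1*, and *Nkd1* on the right, while most intracellular genes lie close to 0.

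Of the 34 intracellular genes, 32 were tested, and none was lower at an unadjusted p value under 0.05, against 4.08% of all genes. At the same threshold 5 (15.6%) were higher, against 5.44% of all genes. These were *Tnks2*, a tankyrase that marks axin for destruction (log2 fold change 1.86), *Daam2*, a formin bound by Dishevelled (0.59), *Bcl9*, a partner of β-catenin in the nucleus (0.46), *Dvl2*, a Dishevelled protein (0.25), and *Tcf7l1*, a TCF factor that mostly represses (0.24). *Bcl9* was at 17.3, 16.7, 13.3, and 13.8 CPM at 12 hours p.r. and at 10.4, 11.7, 10.6, and 11.9 CPM in NC, with no overlap (edgeR unadjusted p = 0.00664, adjusted p = 0.432). *Tnks2* was uneven within both groups (edgeR unadjusted p = 0.0281, adjusted p = 0.478). It was at 2.72, 11.7, 11.9, and 4.51 CPM at 12 hours p.r. and at 0.641, 1.1, 1.21, and 5.44 CPM in NC. With single rats left out, its log2 fold change ran from 1.55 (without NC replicate 1) to 2.96 (without NC replicate 4). *Daam2* was at 19.4, 24.2, 11.2, and 17.5 CPM at 12 hours p.r. and at 8.1, 13.7, 14.6, and 11.6 CPM in NC. *Dvl2* was at 18.9, 21.3, 17.4, and 19.0 CPM at 12 hours p.r. and at 15.9, 15.9, 17.3, and 15.4 CPM in NC, with no overlap. *Tcf7l1* was at 36.5, 31.6, 40.3, and 31.4 CPM at 12 hours p.r. and at 28.4, 28.6, 32.4, and 28.9 CPM in NC. In the 8 fits that omitted 1 rat, *Bcl9* kept an unadjusted p value under 0.05 in 8 and *Ror1* in 4. *Tnks2* and *Tcf7l1* kept it in 3, and *Daam2* and *Dvl2* in 2. In the 13 other alternatives *Bcl9* and *Tnks2* kept it in 12, *Ror1* in 11, *Daam2* and *Dvl2* in 6, and *Tcf7l1* in 3. *Ctnnb1*, which encodes β-catenin, was at 298 ± 10.8 CPM at 12 hours p.r. and 274 ± 27.2 CPM in NC (SD, n = 4 each), a log2 fold change of 0.12.

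Of the 12 target genes, 11 were tested and 2 (18.2%) were higher at an unadjusted p value under 0.05, against 5.44% of all genes. *Nkd1* (ENSRNOG00000014293), a feedback inhibitor that binds Dishevelled, was at 14.6, 11.6, 15.6, and 17.7 CPM in the 12 hours p.r. rats and at 9.86, 7.48, 9.82, and 8.24 CPM in the NC rats. Every runner lay above every NC rat. The log2 fold change of 0.75 had a standard error of 0.17 (edgeR unadjusted p = 0.00139, adjusted p = 0.385), while the Wald test of DESeq2 called it at an adjusted p value of 0.0318, among the 0.694% of genes it called. It kept an unadjusted p value under 0.05 in edgeR in all 8 fits that omitted 1 rat, and *Fosl1* in 6. *Fosl1*, an AP-1 factor, was at 3.24, 5.53, 3.45, and 3.0 CPM at 12 hours p.r. and at 2.65, 1.72, 2.57, and 1.70 CPM in NC, with no overlap and a log2 fold change of 0.80 (edgeR adjusted p = 0.452). The other targets tested, which include *Ccnd1*, *Myc*, *Apcdd1*, and *Nkd2*, had log2 fold changes between −0.36 and 0.21.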

How the data were processed

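Polyadenylated mRNA of 8 rat Achilles tendons was sequenced, 1 library per rat, and the labels give the group and replicate number but no sequencing batch. The authors made stranded libraries and aligned them to Rnor_6.0 with HISAT2 2.1.0. Ensembl genes were then counted with featureCounts 1.6.3, and the counts were deposited as whole reads, not normalized. How the counting treated strand and reads that match several genes is not given in the sources used here, so values of overlapping genes are uncertain. The FPKM values the authors deposited correct each count for gene length and for a scaling factor of the rat, which equaled the DESeq2 size factor and differed from the total counts by up to 10.1%. The deposited table of the authors' own comparison (fold changes and p values) was not used.

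From the counts, genes with few reads were removed with filterByExpr of edgeR 4.0.16. The groups were compared after TMM scaling by glmQLFit and glmQLFTest, and p values were adjusted by the Benjamini-Hochberg method for the 13937 genes that remained. CPM are counts per TMM-scaled library size and were used for 1 gene across rats, while FPKM were used to compare genes. Exact permutation tests, which were 2-sided, used log2(CPM + 0.5) and every split of the 8 rats. Alternatives were DESeq2 1.42.0, limma 3.58.1 on log2 FPKM and with voom, other factors and filters, the replicate number as a block, marker levels as covariates, and sets of rats left out. The software was R 4.3.3 and Python 3.11.15.

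The members and all lists were chosen with earlier results of these data known. Values per rat are given for members with an unadjusted p value under 0.05 or no overlap between the groups. They are also given for the 3 members highest in FPKM in each role and for other pathway genes with an unadjusted p value under 0.05. Other values given for *Frzb*, *Wif1*, *Rspo2*, *Wnt4*, *Wnt9a*, *Wnt16*, *Scx*, *Mkx*, *Egr1*, *Tnmd*, *Wls*, *Porcn*, and *Ctnnb1* were added after they were seen. The pathway genes *Axin1* and *Znrf3* and the markers *Myh4*, *Ttn*, *Pecam1*, and *Cd79a* were not analysed here. A gene at 1 CPM had between 7.6 and 13.3 reads in a library, which limits the precision of *Wnt6* and of all genes near that level.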

Additional observations from a re-analysis of the deposited data

Results flagged for a closer look

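In each group of 4 rats, the highest and the lowest value of every tested member, of every marker mean, and of the total counts were compared with the nearest of the other 3 by Dixon's criterion for a single distant value. Of 74 such groups, 4 were picked out, where chance gives about 3.7. *Fzd9* in 12 hours p.r. replicate 3 was at 2.07 on the log2(CPM + 0.5) scale, against 4.11 to 4.49 in the other runners. *Fzd1* was low in the same rat, at 4.37 against 4.77 to 4.85. *Fzd6* was low in 12 hours p.r. replicate 1, at 5.61 against 5.81 to 5.84, a small gap beside the very narrow spread of the other 3. The cartilage and bone marker mean of NC replicate 3 was 4.84, and the remaining NC rats lay between 1.76 and 2.09.

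Of the 28 members tested, 12 hours p.r. replicate 3 was the lowest rat for 11 and the highest for 5, and NC replicate 3 was the highest for 9 and the lowest for none (0).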

How the results depend on the processing

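No member had an adjusted p value under 0.05 in any alternative run. With DESeq2 the call count of the other pathway genes was 1 (*Nkd1*), against 0 in edgeR, where DESeq2 called 96 of all genes and edgeR 1. At an unadjusted p value under 0.05 there were 4 members higher and 5 lower in the main fit. The lower count became 3 with limma on log2(FPKM + 0.1), where *Fzd2*, *Fzd7*, and *Lrp5* stayed among the higher members. The counts became 2 higher and 3 lower without the pair of rats highest in cartilage and bone genes. Without the 3 libraries that stand apart, a set chosen after seeing the data, 2 were lower. *Fzd2*, *Lrp5*, and *Dkk3* were among the higher members in that fit. For the other pathway genes, 7 higher and 1 lower, the higher count became 4 with limma on log2(FPKM + 1). The counts became 4 higher and 0 lower on log2(FPKM + 0.1). The lower count became 3 without the pair and 2 without the 3 libraries. *Nkd1* and *Fosl1* kept an unadjusted p value under 0.05 in all of these fits. When single rats were omitted, the members ran from 0 to 3 higher (0 without 12 hours p.r. replicate 1, NC replicate 2, or NC replicate 4) and from 2 to 7 lower (2 without NC replicate 3), and the pathway genes from 3 to 10 higher and from 0 to 2 lower.

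Of the 28 members, 8 turned direction in at least 1 alternative, and the lowest unadjusted p value where one turned was 0.536. *Dkk4* was at 0.031 without the pair and ran from −0.30 to 0.061 with single rats left out, *Fzd9* from −0.54 to 0.00065, and *Dkk3* from −0.062 to 0.41. Without the 3 libraries *Fzd9* was at 0.094, *Wnt5a* at −0.087, *Rspo1* at 0.049, and *Wnt4* at −0.21. *Wnt4* also turned without 12 hours p.r. replicate 3 (−0.20), with the muscle covariate, and in 2 limma fits, *Fzd5* in 4 fits without single rats, and *Fzd1* in 1. The cause of these changes was not tested. *Sfrp2* kept an unadjusted p value under 0.05 in all 13 alternatives other than single rats. *Rspo3* kept it in 12 of them, all but the fit without the 3 libraries, and *Fzd2* and *Lrp5* also in 12. *Fzd7* and *Wnt5b* kept it in 11, *Axin2* in 8, *Sfrp5* in 7, and *Wnt6* in 6. *Wnt6* lost it in DESeq2 and *Axin2* in limma with voom, among other fits.

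The labels give no pairing of rats by replicate number. The correlations of same-numbered residuals were 0.07, −0.20, 0.13, and 0.09, and so few values cannot decide whether same-numbered rats were handled together. With the replicate number as a block, 2 members and 4 other pathway genes were higher at an unadjusted p value under 0.05. In that fit 6.99% of all genes were under 0.05 in either direction. *Sfrp2*, *Sfrp5*, *Wnt5b*, and *Rspo3* were among the lower members in that fit, and no member had an adjusted p value under 0.05. The median log2 fold change of all genes ran from −0.0039 to 0.026 over all fits.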
